A study of Mus musculus with 16 samples.

Results

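Solvent-treated control hepatocytes were compared between 4 h and 2 h of DMSO, with no cAMP-raising drug given. The times are those of the labels, taken as given. The members are 4 of the 16 arrays of the series, the 2 titled for the control adenovirus with DMSO at 4 h and the 2 titled for the same virus and solvent at 2 h. All 7746 genes with a detected probe were tested. The cells were primary hepatocytes of C57BL/6 mice aged 6 to 8 weeks, and all 4 had received the control adenovirus, which the titles call GFP and the design text calls shGFP. No time zero and no uninfected or DMSO-free cells were among the arrays, so the comparison holds 2 times after the solvent was given and no baseline before it. The other 12 arrays used here for context carried the same control virus with forskolin, an activator of adenylyl cyclase, or an adenovirus against Hdac4 and Hdac5 with DMSO or forskolin, each at 2 h and 4 h. Whether both arrays of a group stand for separate cultures or animals is not stated in the labels. The p-values below therefore weigh a difference against array-to-array spread that could be technical.

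Hepatocytes answer inflammatory signals through NF-kB, a family of transcription factors held in the cytoplasm by inhibitor proteins until a kinase complex removes them. NF-kB switches on chemokines, adhesion molecules and its own inhibitors, and cytokines such as interleukin 1 and interleukin 6 drive the acute phase response, in which the liver secretes serum amyloid and related plasma proteins. In culture, isolated hepatocytes are known to lose part of their differentiated program, including drug-metabolising cytochrome P450 enzymes and the transcription factors that maintain them.

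Signals were read on Illumina bead arrays and are given as log2 of background-corrected, quantile-normalized intensity, 1 probe a gene. Array A and array B below are the letters of the table's columns. In the 4 arrays the number of probes detected (detection p under 0.01) ran from 8763 to 9176 of 24613, and median raw intensity from 110 to 116 units. The 2 arrays of a time correlated at 0.994 (2 h) and 0.993 (4 h) over the genes tested, and arrays of different times at 0.979 to 0.982. The genes targeted by the other virus were detected in these control cells and did not pass the test: Hdac4 read 7.40 and 7.53 at 2 h and 7.45 and 7.46 at 4 h (adjusted p = 0.98), and Hdac5 9.05 and 9.32 at 2 h and 9.02 and 9.27 at 4 h (adjusted p = 0.89). In the knockdown arrays with DMSO, mean Hdac5 was 5.76 at 2 h and 5.79 at 4 h.

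Of 7746 genes, 907 (11.7%) differed between 4 h and 2 h at an adjusted p under 0.05 (limma, Benjamini-Hochberg), 468 of them higher at 4 h (6.04%) and 439 lower (5.67%). The largest changes were nearly all falls. Among genes past the test, 114 fell and 34 rose more than 2-fold, and 24 fell and 2 rose more than 4-fold. The median change over all genes tested was 0.01 on the log2 scale, and the median standard error was 0.13. With median scaling in place of quantile normalization, 235 genes were higher and 430 lower, so the share of higher genes among those called moved from 51.6% to 35.3%. Leaving out 1 of the 4 arrays lowered the number called to 502 (2 h array A), 559 (2 h array B), 526 (4 h array A) or 566 (4 h array B). For all 907 genes called the arrays of the 2 times did not overlap, against 4140 of all genes tested (53.4%). The calls rest on the same values, so this adds no support to them.

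**Figure D1:**
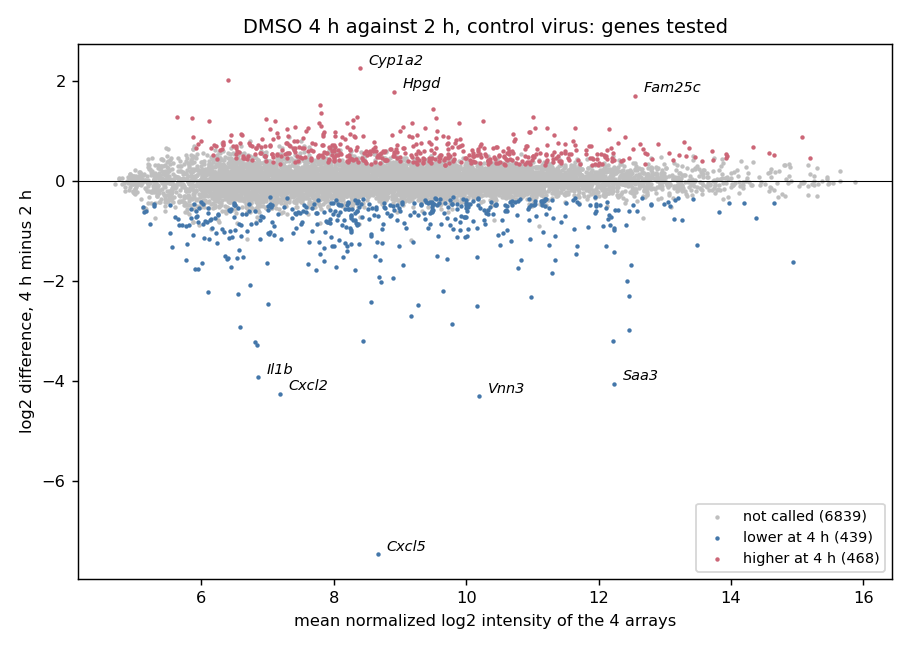
Log2 difference between 4 h and 2 h of DMSO in control-virus hepatocytes (y axis) against the mean normalized log2 intensity of the 4 arrays (x axis), 1 point a gene. The 439 genes called lower (blue) reach much further from 0 than the 468 called higher (red), with Cxcl5 the farthest.

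The 14 largest falls included 4 chemokine genes, cytokine genes and acute phase genes, beside transporters and other genes. Cxcl5, which encodes a chemokine that draws neutrophils, read 12.56 and 12.22 at 2 h and 5.02 and 4.85 at 4 h. None of its probes was detected at 4 h, which makes the fall at least 54-fold (adjusted p = 2.5e-11, fitted on the measured values). Cxcl2, a related neutrophil chemokine, read 9.25 and 9.36 at 2 h and 5.16 and 4.96 at 4 h, where it too was below background, a fall of at least 6.35-fold (adjusted p = 2.9e-10). In both genes the 2 h arrays were far above the 4 h arrays. "At least" sets the mean of the detected time against the lowest signal that counted as detected on the other time's arrays, or against the probe's own signal where that was higher.

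Saa3, a serum amyloid A gene of the acute phase response, read 14.22 and 14.29 at 2 h and 10.01 and 10.40 at 4 h, 16.6-fold lower (log2 difference -4.05 ± 0.15 SE, adjusted p = 1.9e-09). Vnn3, a gene of the vanin family of pantetheinases, went from 12.32 and 12.35 to 8.08 and 8.00 (19.7-fold lower, log2 difference -4.30 ± 0.12 SE, adjusted p = 1.6e-10). Il1b, the cytokine interleukin 1 beta, went from 8.85 and 8.77 to 4.88 and 4.89, below background at 4 h and at least 4.51-fold lower (adjusted p = 3.1e-10). These genes were high on both 2 h arrays and low on both 4 h arrays, with gaps many times the distance between arrays of 1 time.

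Ccl7, a chemokine for monocytes, read 13.81 and 13.82 at 2 h and 10.54 and 10.71 at 4 h (9.13-fold lower). Cxcl1, a neutrophil chemokine, read 13.99 and 13.92 and then 10.97 and 10.97 (7.91-fold lower). Hamp, which encodes the iron hormone hepcidin, read 11.19 and 11.24 and then 8.38 and 8.34 (7.26-fold lower). All 3 remained detected on both 4 h arrays. The other genes among the 14 largest falls were the amino acid transporter gene Slc7a2 (9.22-fold), the kinase gene Ikbke of the NF-kB and interferon pathways (6.46-fold), the organic anion transporter gene Slco3a1 (5.63-fold), and 3 genes below background at 4 h: Duoxa2, a maturation factor for a dual oxidase (at least 3.59-fold), Ltb, lymphotoxin beta (at least 3.44-fold), and Neurl3 (at least 2.63-fold).

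**Figure D2:**
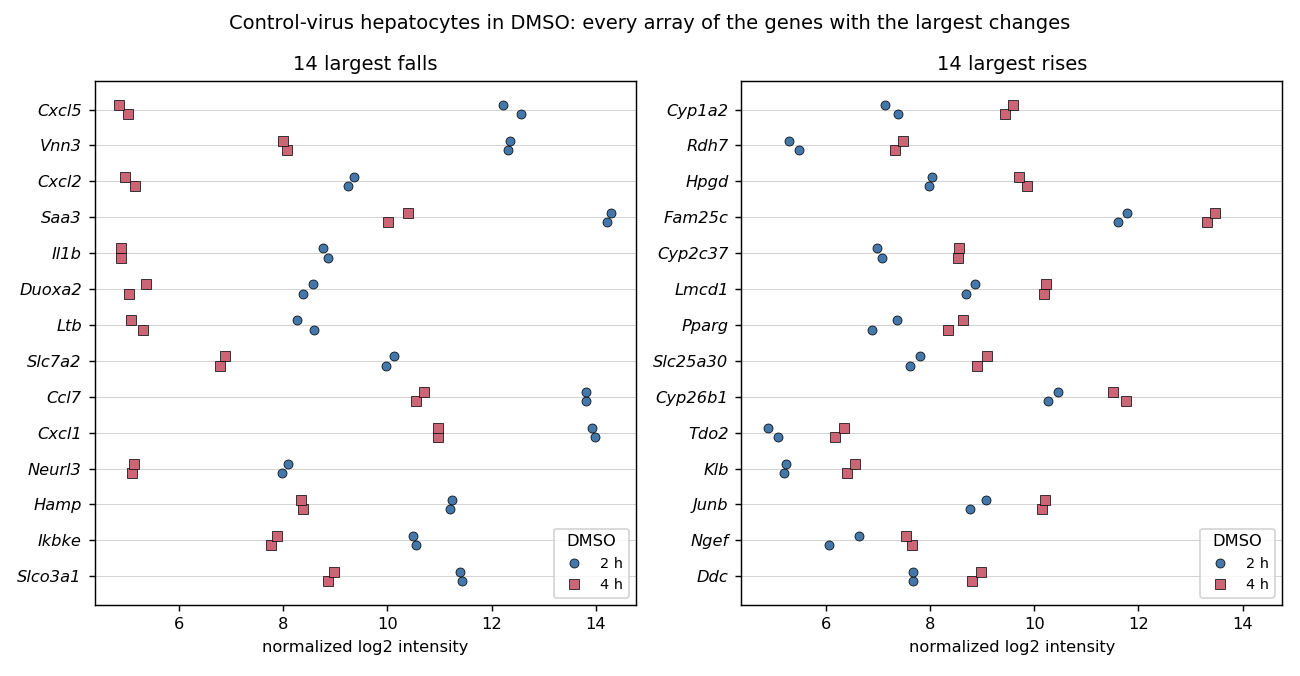
Normalized log2 intensity (x axis) on each of the 2 arrays at 2 h (circles) and the 2 at 4 h (squares) for the genes with the 14 largest falls (left) and 14 largest rises (right) past the test. The 28 genes were picked among those whose times do not overlap, and Cxcl5 spans the widest range, from 12.56 to 4.85.

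The largest rises were smaller than the largest falls. Cyp1a2, a cytochrome P450 typical of mature hepatocytes, read 7.39 and 7.14 at 2 h and 9.45 and 9.59 at 4 h, 4.76-fold higher (log2 difference 2.25 ± 0.13 SE, adjusted p = 1e-07). Hpgd, whose enzyme breaks down prostaglandins, read 7.99 and 8.04 and then 9.87 and 9.72 (3.43-fold higher). Cyp2c37 read 7.08 and 6.99 and then 8.54 and 8.55 (2.85-fold higher). Each of these was detected at both times, with both 4 h arrays above both 2 h arrays, as the rule that picked them required.

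Rdh7, a retinol dehydrogenase gene, was below background at 2 h (5.48 and 5.30) and detected at 4 h (7.33 and 7.48), at least 1.95-fold higher. Fam25c read 11.61 and 11.78 and then 13.32 and 13.48 (3.25-fold higher). Pparg, a nuclear receptor gene of lipid storage, rose 2.58-fold, from 6.88 and 7.37 to 8.35 and 8.64. Cyp26b1, whose enzyme hydroxylates retinoic acid, rose 2.41-fold, and Ddc, aromatic amino acid decarboxylase, 2.32-fold. The mitochondrial carrier gene Slc25a30 rose 2.44-fold, the LIM domain gene Lmcd1 2.70-fold, and Junb, an AP-1 subunit gene, 2.39-fold. Ngef, an exchange factor for small GTPases, was detected on 1 of the 2 arrays at 2 h and on both at 4 h and rose 2.37-fold. Tdo2 and Klb also passed the test but had no probe detected at either time, so no fold is given for them. Leaving out any of the 4 arrays ended the call of Tdo2, and its adjusted p over the alternatives ran from 0.0033 to 0.14.

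Chemokines fell as a group. Of 17 measured CXC and CC chemokine genes of 28 listed, 12 were lower at 4 h, 1 was higher and 4 did not pass the test, beside 5.67% of all genes lower. The median log2 change over the 17 was -1.23, against 0.01 over all genes, and it was the same with the 4 genes that have only a bound set to their bound. The list's members with the smallest p were Cxcl5, Cxcl2, Ccl7, Cxcl1 and Cxcl16. Cxcl16, a chemokine that also exists as a membrane protein, read 12.21 and 12.22 at 2 h and 10.34 and 10.41 at 4 h (3.58-fold lower, adjusted p = 1.8e-08). Leaving out each of the 4 arrays in turn left 11 or 12 chemokines lower. The exception was Cxcl12, a chemokine made by resting tissue, which read 10.60 and 10.42 at 2 h and 11.55 and 11.60 at 4 h and was 2.09-fold higher (adjusted p = 1.6e-05).

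Beside 5.67% of all genes lower, NF-kB subunits and feedback genes fell in 15 of 19 measured genes of 28 listed, with none higher. Their median log2 change was -1.29, or -1.16 with the bounded gene at its bound, and 13 to 15 were lower when each of the 4 arrays was left out. Icam1, an adhesion molecule for leukocytes, read 13.32 and 13.32 at 2 h and 11.61 and 11.67 at 4 h (3.20-fold lower, adjusted p = 1.2e-07). Vcam1, another adhesion molecule, read 11.62 and 11.62 and then 10.05 and 10.04 (2.98-fold lower). Tnfaip2 fell 5.58-fold, Tnip1, a partner of the inhibitor A20, 2.23-fold, and Zc3h12a, an RNase that degrades cytokine mRNAs, at least 1.11-fold with no probe detected at 4 h.

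Several core parts of the NF-kB circuit, picked here after their values were seen, moved together. Nfkbia, which encodes the inhibitor IkB alpha, read 8.98 and 8.70 at 2 h and 7.77 and 7.33 at 4 h (2.45-fold lower, adjusted p = 0.0066). It lost the call without 2 h array A or 4 h array B, with a highest adjusted p of 0.069. Tnfaip3, which encodes A20, averaged 11.07 ± 0.10 at 2 h and 10.04 ± 0.04 at 4 h (SD, n = 2 each) and was 2.04-fold lower (limma, adjusted p = 9.2e-05). Of the subunit genes, Nfkb2 fell 2.46-fold and Relb 2.64-fold, whereas Rela, a subunit regulated mostly at the protein level, differed by -0.28 ± 0.10 SE and did not pass (adjusted p = 0.092). Both inhibitors and both inducible subunits were lower on each 4 h array than on either 2 h array. Such a gap held for all 907 genes called, so it adds no support here.

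Promoters of the fallen chemokine and NF-kB genes were searched for the kappa B motif GGANTTNCC on both strands, in windows from 250 bases before to 50 after each gene's start (RefSeq, GRCm38.p6). A match is a description of letters and not evidence of binding. The NF-kB list was made of genes of that pathway, and its members that were not called were not counted apart. Its share of motif holders therefore cannot be tied to the fall. Genes of both lists called lower also count among all genes called lower. The motif stood in the windows of 8 of 11 matched NF-kB list genes called lower, 2 of 7 matched chemokine genes called lower, 39 of 340 matched genes called lower of the whole table (11.5%), and 20 of 381 called higher (5.25%). Of all genes tested with a window, 318 of 6343 (5.01%) held it, and 4.54% of all 27025 genes with a window did. Cxcl5, Ccl7, Cxcl16, Ccl2, Ccl4, Vcam1, Nfkbiz, Relb and Map3k8 were not matched. The CRE motif TGACGTCA was in 0 of 7 and 0 of 11 of the same windows and in 3.61% of all tested. The AP-1 motif TGANTCA was in 2 of 7 and 3 of 11, and in 12.1% of all matched genes called lower and 9.19% of those called higher, against 6.73% of all tested.

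Of the 10 holders of the kappa B motif on the chemokine and NF-kB lists, the 4 with the largest falls are shown because these windows carry the letters searched for, in capitals. They lie on GRCm38.p6 at chr5:90903649-90903948 (Cxcl2), chr5:90890995-90891294 (Cxcl1), chr12:111442411-111442710 (Tnfaip2) and chr9:21015690-21015989 (Icam1), all on the plus strand, and are 300 bases long.
Cxcl2: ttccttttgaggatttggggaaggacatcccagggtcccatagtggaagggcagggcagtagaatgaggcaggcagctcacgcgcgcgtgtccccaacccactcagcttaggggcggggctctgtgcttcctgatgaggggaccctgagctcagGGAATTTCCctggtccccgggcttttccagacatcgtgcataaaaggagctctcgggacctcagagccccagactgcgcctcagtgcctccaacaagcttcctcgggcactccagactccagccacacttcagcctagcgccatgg
Cxcl1: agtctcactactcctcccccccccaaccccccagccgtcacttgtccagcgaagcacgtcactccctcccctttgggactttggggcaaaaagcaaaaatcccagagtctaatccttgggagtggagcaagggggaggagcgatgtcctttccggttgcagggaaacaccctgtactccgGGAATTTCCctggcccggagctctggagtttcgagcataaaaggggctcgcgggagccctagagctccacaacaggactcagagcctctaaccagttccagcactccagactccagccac
Tnfaip2: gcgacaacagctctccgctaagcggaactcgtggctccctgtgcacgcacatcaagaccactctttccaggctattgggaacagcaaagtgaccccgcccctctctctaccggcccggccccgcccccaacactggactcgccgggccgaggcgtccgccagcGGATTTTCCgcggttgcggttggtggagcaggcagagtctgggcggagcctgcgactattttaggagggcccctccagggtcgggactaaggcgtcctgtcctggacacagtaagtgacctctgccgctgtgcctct
Icam1: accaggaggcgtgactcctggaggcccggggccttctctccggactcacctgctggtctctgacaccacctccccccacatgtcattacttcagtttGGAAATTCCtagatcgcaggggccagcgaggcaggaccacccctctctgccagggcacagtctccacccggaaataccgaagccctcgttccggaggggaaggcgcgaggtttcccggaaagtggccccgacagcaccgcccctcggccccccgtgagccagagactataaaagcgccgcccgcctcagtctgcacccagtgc
Cxcl2 and Cxcl1 held the same letters, GGAATTTCC, starting 96 and 70 bases before the annotated start. Tnfaip2 held GGATTTTCC at 87 bases before the start. Icam1 held GGAAATTCC at 153 bases before the start, which fits the motif on the minus strand, where it reads GGAATTTCC.

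Acute phase genes fell in 11 of 22 measured genes of 28 listed (all genes: 5.67%), with none higher. Their median log2 change was -0.91. Besides Saa3 and Hamp, the members with the smallest p were Cd14, Steap4 and Saa4. Cd14, a receptor for bacterial lipopolysaccharide, read 12.15 and 12.13 at 2 h and 9.77 and 9.86 at 4 h (4.99-fold lower, adjusted p = 4.7e-09). Saa4, a constitutive serum amyloid, read 9.71 and 9.72 and then 7.73 and 7.67 (4.04-fold lower). Steap4, a metalloreductase, was at least 3.02-fold lower. Crp, which encodes C-reactive protein, read 12.36 and 12.30 and then 11.06 and 10.98 (2.47-fold lower). Other members did not pass the test: Hp, the plasma protein haptoglobin, differed by -0.27 ± 0.13 SE (adjusted p = 0.24), and Socs3, an intracellular inhibitor of cytokine signalling, by -0.15 ± 0.10 SE (adjusted p = 0.43).

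Cytokines and their receptors were lower in 7 of 22 measured genes (all genes: 5.67%) and higher in none, with a median of -0.32. Il1a, interleukin 1 alpha, read 7.52 and 7.82 at 2 h and 5.38 and 5.46 at 4 h, below background, at least 2.05-fold lower. Csf1, the growth factor of macrophages, read 11.34 and 11.22 and then 10.12 and 10.02 (2.31-fold lower). Il33, an alarmin, was 1.52-fold lower (adjusted p = 0.0021). Of the receptor genes, Il13ra1, a chain of the interleukin 13 receptor, read 8.22 and 8.51 and then 7.48 and 7.59 (1.78-fold lower, adjusted p = 0.0054, and 0.062 without 2 h array B). Il6st, a receptor chain shared by the interleukin 6 family, differed by -0.28 ± 0.17 SE and did not pass (adjusted p = 0.35).

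Interferon response genes were lower in 5 of 18 (all genes: 5.67%) and higher in 1, with a median of -0.36. Rsad2, an antiviral enzyme, read 8.49 and 8.56 at 2 h and 7.39 and 7.42 at 4 h (2.17-fold lower). Gbp3, a guanylate-binding protein, was 2.07-fold lower, whereas Irgm1, an immunity-related GTPase, was 1.89-fold higher (10.89 and 10.84, then 11.79 and 11.78). Matrix proteases and their inhibitors were lower in 4 of 15 and higher in none. Mmp13, a collagenase, read 9.74 and 9.99 and then 7.99 and 7.88 (3.81-fold lower, adjusted p = 5e-07).

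**Figure D3:**
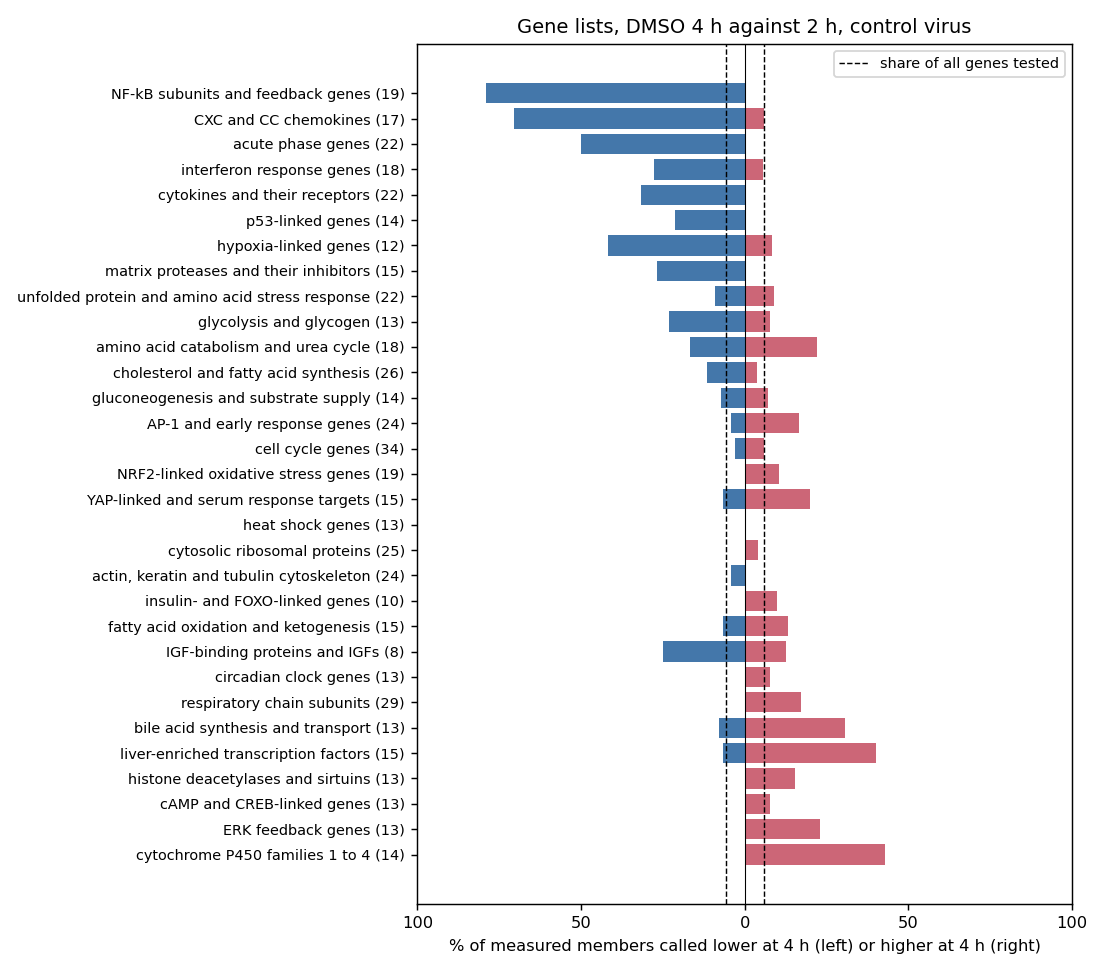
Share of measured members of each gene list called lower (left, blue) or higher (right, red) at 4 h, ordered by the list's median log2 difference, with the number measured in parentheses. Dashed lines mark the shares over all genes tested, 5.67% lower and 6.04% higher. NF-kB, chemokine and acute phase lists reach furthest to the left, and cytochrome P450 genes and liver-enriched transcription factors furthest to the right.

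Part of the cytochrome P450 genes were higher at 4 h. Of 14 measured cytochrome P450 genes of families 1 to 4, of 38 listed, 6 were higher (all genes: 6.04%) and none lower. Their median log2 change was 0.42. With median scaling, 5 were higher. Cyp2c70, which takes part in making rodent bile acids, read 11.23 and 11.34 at 2 h and 11.98 and 12.01 at 4 h (1.64-fold higher, adjusted p = 0.00022). Cyp1b1 read 6.97 and 7.12 and then 7.90 and 7.79 (1.74-fold higher, adjusted p = 0.00043). Cyp3a11, a main drug-metabolising enzyme, was below background at both times.

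Liver-enriched transcription factors were higher in 6 of 15 measured genes (all genes: 6.04%) and lower in 1, with a median of 0.16. With median scaling, 3 were higher and 1 lower. Onecut2, a homeodomain factor, read 8.61 and 8.58 at 2 h and 9.65 and 9.86 at 4 h (2.23-fold higher, adjusted p = 5.9e-05). Hnf4a, a master regulator of hepatocyte genes, read 10.74 and 10.76 and then 11.51 and 11.25 (1.55-fold higher, adjusted p = 0.0033). Creb3l3, a liver factor of lipid and acute phase genes, was 1.62-fold higher. The one that fell was Cebpd, an inflammation-induced factor, at 1.51-fold lower by its brightest probe (adjusted p = 0.0023), while its other probe differed by -0.02. Cebpb, of the same family, differed by -0.05 ± 0.11 SE (adjusted p = 0.82).

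Markers of cell types were read the same way, beside 6.04% of all genes higher and 5.67% lower. Of 10 measured hepatocyte markers 3 were higher and none lower, and all 10 were detected; the other 6 of the 16 listed, Alb among them, were not among the genes tested. Ttr, transthyretin, read 11.68 and 11.60 at 2 h and 12.68 and 12.69 at 4 h (2.06-fold higher, adjusted p = 7.3e-06). The others were Ahsg, 1.67-fold higher (adjusted p = 0.0052, and 0.057 without 2 h array A), and Apoa1, 1.42-fold higher, which lost its call without 2 h array A, 2 h array B or 4 h array B and under median scaling (highest adjusted p = 0.26).

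Macrophage markers moved in both directions. Of 8 measured of 16 listed, all detected, Cd14, Adgre1, Marco and Lyz2 were lower and Vsig4 and C1qa higher. The summed linear intensity of the 8 was 9951 and 10053 at 2 h and 5699 and 5986 at 4 h. Cd14, which hepatocytes also express, made the largest change and most of the fall in this sum. It read 12.15 and 12.13 at 2 h and 9.77 and 9.86 at 4 h. The median log2 change over the 8 was -0.26. Adgre1, a surface receptor gene of macrophages, read 9.29 and 9.12 and then 8.58 and 8.66 (log2 difference -0.59 ± 0.12 SE, adjusted p = 0.005, and 0.06 without 2 h array A). Vsig4, a complement receptor of Kupffer cells, averaged 9.11 ± 0.03 at 2 h and 9.96 ± 0.05 at 4 h (SD, n = 2 each) and was 1.80-fold higher (limma, adjusted p = 0.00018). Marco, a scavenger receptor, lost its call without 2 h array A, 4 h array A or 4 h array B (highest adjusted p = 0.15), C1qa without 2 h array A or 4 h array A (0.17) and Lyz2 without any 1 of the 4 arrays (0.23). C1qb and C1qc, both complement genes of macrophages, differed by -0.12 ± 0.16 SE and 0.03 ± 0.15 SE and did not pass. Inflammatory genes that macrophages make, such as Il1b, fell, while these markers moved in both directions. The part of such cells in the falls was not tested. In bulk RNA, fewer cells of a type and less RNA per cell cannot be told apart.

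Of the other marker lists, endothelial genes were lower in 3 of 9 (all genes: 5.67%) and higher in none. The 3 were Fcgr2b, Stab1 and Lyve1, with Stab1 below background at both times. Summed intensity of the 9 ran from 2858 to 3029 at 2 h and from 2478 to 2839 at 4 h. Fcgr2b lost its call without 2 h array B or 4 h array A (highest adjusted p = 0.25), Stab1 without 2 h array B, 4 h array A or 4 h array B (0.26), and Lyve1 without 2 h array A, 2 h array B or 4 h array B and without each of the other 12 arrays (0.39). Stellate and fibroblast markers showed 0 calls among 7. No lymphocyte marker was measured. Of 4 measured cholangiocyte markers, 1 was higher and 0 lower. Of 2 measured neutrophil markers, S100a8 was called lower (limma, adjusted p = 0.0098). It was below background at both times and lost the call under 3 alternatives. Camp was below background at 4 h and did not pass, while the hepatocyte genes above stayed well detected.

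AP-1 and early response genes were higher in 4 of 24 and lower in 1, with a median of -0.07, so 20.8% were called, against 11.7% of all genes. Junb read 8.77 and 9.07 at 2 h and 10.15 and 10.20 at 4 h, and Gadd45a, a growth arrest gene, was 1.68-fold higher. Gadd45b, an NF-kB-inducible relative, was 2.02-fold lower. Jun, Atf3, Egr1 and Klf4 did not pass (adjusted p = 0.35, 0.35, 0.76 and 0.85). Among stress lists, p53-linked genes were lower in 3 of 14 and higher in none, and unfolded protein and amino acid stress genes were higher in 2 of 22 and lower in 2. Heat shock genes had no call among 13, ribosomal protein genes 1 among 25 (0 with median scaling) and cell cycle genes 3 among 34. Only the NF-kB, chemokine and acute phase lists had at least 50% of measured members lower among the 31 gene lists other than cell type markers.

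Metabolic genes moved individually. In glucose production, Fbp1, fructose bisphosphatase, read 8.53 and 8.55 at 2 h and 7.76 and 7.75 at 4 h (1.72-fold lower, adjusted p = 0.0021), and Gpd1, which supplies glycerol carbon, was 1.74-fold higher (adjusted p = 0.00021). G6pc, Pck1, Ppargc1a and Igfbp1, genes that glucagon or insulin control, were below background at both times in these DMSO-treated cells. Pcx, pyruvate carboxylase, was detected on both 2 h arrays and 1 of the 2 at 4 h and did not pass (-0.54 ± 0.24 SE, adjusted p = 0.18). Pklr, liver pyruvate kinase, read 8.70 and 8.56 and then 7.23 and 7.42 (2.47-fold lower), and Hk2, hexokinase 2, was 1.94-fold lower. Hk2 is also on the hypoxia list, on which 5 of 12 genes were lower (all genes: 5.67%) and 1 higher. There Egln3, an oxygen-sensing hydroxylase, read 9.30 and 9.10 and then 7.54 and 7.31 (3.42-fold lower, adjusted p = 8.2e-07).

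Transport and breakdown genes held single strong movers. Slc7a2, which imports arginine and other cationic amino acids, read 9.96 and 10.12 at 2 h and 6.79 and 6.88 at 4 h. Abcc3, an exporter of bile acids and conjugates, read 11.91 and 11.87 and then 10.73 and 10.87 (2.13-fold lower). On the bile acid list 4 of 13 genes were higher (all genes: 6.04%), or 2 with median scaling. Acaa1b, a peroxisomal thiolase, read 9.33 and 9.30 and then 10.51 and 10.44 (2.23-fold higher). Igf1, insulin-like growth factor 1, read 10.40 and 10.22 and then 11.21 and 11.11 (1.80-fold higher, adjusted p = 7e-05). Its list of IGFs and their binding proteins had 1 gene higher and 2 lower of 8 measured. Of respiratory chain subunits 5 of 29 were higher (all genes: 6.04%), or 3 with median scaling. None was lower, and Ndufa3 of complex I led at 2.09-fold. Among 13 measured deacetylase genes, Hdac11 was 2.05-fold higher (6.83 and 6.72, then 7.84 and 7.79) and Hdac7 1.37-fold higher (adjusted p = 0.027, with 0.19 the highest value over the alternatives and no call without any 1 of the 4 arrays).

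The other 4 control-virus arrays, treated with forskolin, place these levels. Cxcl5 averaged 4.90 at 2 h and 4.93 at 4 h with forskolin, as low as with DMSO at 4 h, so the DMSO 2 h group alone was high among control-virus groups. Saa3 averaged 10.62 and 9.57 with forskolin against 14.26 and 10.21 with DMSO, and Icam1 11.79 and 11.61 against 13.32 and 11.64. Of the 439 genes lower at 4 h, 323 had both DMSO 2 h arrays above all other 6 control-virus arrays (73.6%, against 9.68% of all genes tested), and 108 had both DMSO 4 h arrays below all other 6 (24.6%, against 5.14%). The calls already place 2 h above 4 h, so these shares describe where the forskolin arrays lie and are not a test. Of the 468 higher genes, 194 had the 2 h arrays below the other 6 (41.5%, against 8.26% of all genes) and 179 the 4 h arrays above them (38.2%, against 7.44%).

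**Figure D4:**
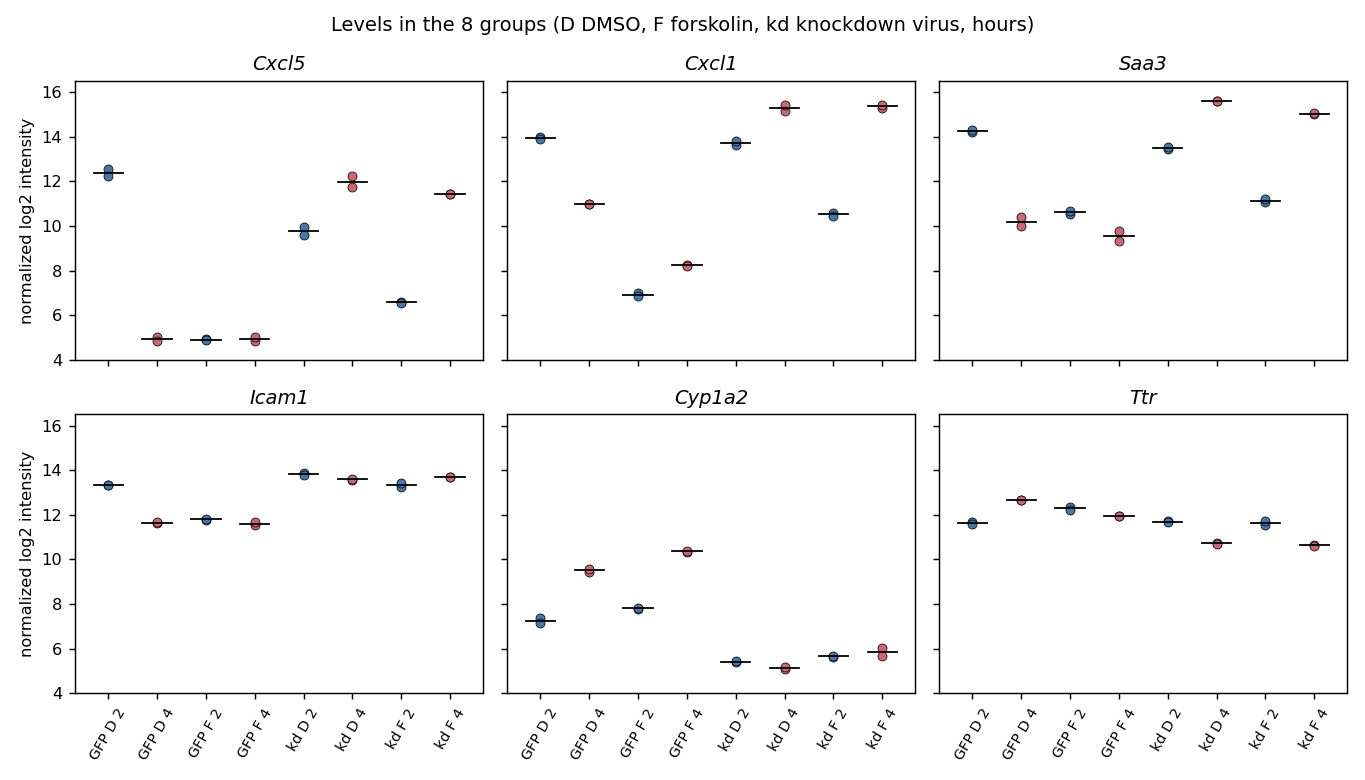
Normalized log2 intensity (y axis) of 6 genes on both arrays of the 8 groups (x axis), with a line at the group mean and colours for 2 h (blue) and 4 h (red). Cxcl5, Saa3 and Icam1 are high with DMSO at 2 h and low in the other control-virus groups, and in the knockdown DMSO groups Cxcl5, Cxcl1 and Saa3 are higher at 4 h than at 2 h.

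The same time comparison was made with the knockdown virus. There, 669 genes were called (8.64%), 347 higher and 322 lower. Leaving out 1 of its 4 arrays lowered this to 380 (2 h array A), 417 (2 h array B), 371 (4 h array A) or 385 (4 h array B). The 2 time comparisons share no arrays. They had 234 calls in common, 25.8% of those with the control virus and 35% of those with the knockdown virus, and 57 of these moved the same way and 177 the opposite way. Across the 7746 genes the 2 log2 differences correlated at -0.246 (Pearson) and -0.058 (Spearman), as a description across genes that share arrays within each axis. The difference of the 2 time changes passed for 854 genes (11%).

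Inflammatory genes made up the clearest contrast between the viruses. Chemokines, 12 lower and 1 higher with the control virus, were 10 higher and 1 lower with the knockdown virus, and the difference was called for 12 in the direction of a greater fall, or smaller rise, with the control virus and for 1 in the other. NF-kB genes were 7 higher and 0 lower with the knockdown virus, with 16 of 19 called in the difference, all in that direction. Acute phase genes were 10 higher and 2 lower, with 14 and 1 called in the difference. Cxcl1 averaged 13.71 at 2 h and 15.29 at 4 h in knockdown cells with DMSO, a rise of 1.58 on the log2 scale, where control cells fell by 2.98. Cxcl5 averaged 9.77 and 11.99 and Saa3 13.50 and 15.61. Icam1, by contrast, averaged 13.82 and 13.60, with no call (adjusted p = 0.21). Ttr, which rose with the control virus, averaged 11.69 and 10.72 in knockdown cells and fell by 0.97. Macrophage markers also turned, with Cd14, Adgre1, Marco and Lyz2 higher at 4 h in knockdown cells and Vsig4 lower, and the difference between viruses was called for 5 of the 8. What sets the direction in each virus was not tested. The low Hdac5 signal bears on the virus labels, but no value here checks the time labels of the DMSO groups, which were taken as given and on which the sign of every difference between 4 h and 2 h rests.

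**Figure D5:**
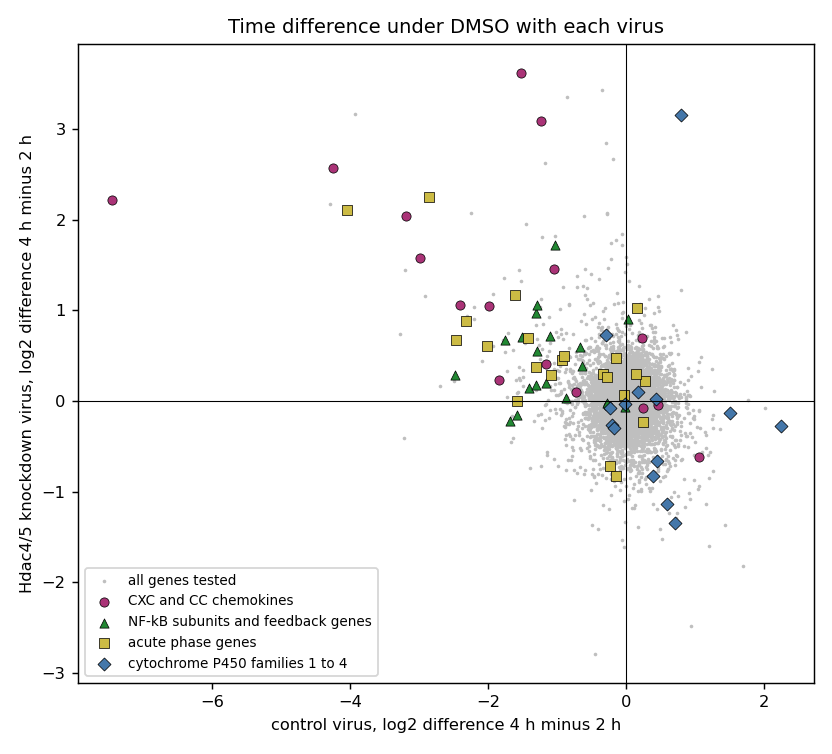
Log2 difference between 4 h and 2 h of DMSO with the Hdac4/5 knockdown virus (y axis) against the same with the control virus (x axis), 1 point a gene, with 4 gene lists marked. Chemokine, NF-kB and acute phase genes lie mostly in the upper left, lower at 4 h with the control virus and higher with the knockdown virus, and Cxcl5 is the point farthest left.

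With forskolin in control cells, 2954 genes (38.1%) were called between 4 h and 2 h, far more than with DMSO, and the difference of the DMSO and forskolin time changes passed for 2061 (26.6%). The DMSO and forskolin time comparisons share no arrays. They had 492 calls in common, 54.2% of the DMSO calls and 16.7% of the forskolin calls, with 268 the same way and 224 the opposite way, and across genes their log2 differences correlated at 0.0692 (Pearson) and 0.0758 (Spearman). Chemokines were 1 higher and 7 lower with forskolin, and the difference was called as a greater fall with DMSO in 12 of 17 and as the reverse in 2. Cyp1a2 rose with both, by 2.25 with DMSO and 2.56 with forskolin. AP-1 genes mostly differed the other way. With forskolin 16 of 24 fell and 3 rose, against 1 and 4 with DMSO. The difference was called with the DMSO change the higher in 16 and the lower in 3.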

How the data were processed

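RNA of 16 hepatocyte samples was read on Illumina bead arrays. The deposited intensity is each probe's brightness on a linear scale, made with GenomeStudio per the submitters' processing notes, in a table called non-normalized. The p-value beside it is a detection p, per the file headers. Another table, of intensity values already normalized by the authors, served as an alternative. How it was normalized is not given in the sources used here. Columns were tied to groups by their names.

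The neqc function of limma 3.58.1 (R 4.3.3) subtracted background using the detection p-values, added an offset of 16, applied quantile normalization and took log2. This shrinks folds of dim genes and gives all arrays the same distribution. Of 24613 probes, GEO's platform annotation gave 20984 a single gene, 1 several genes and 3628 no gene. Entrez identifiers matched 20968 of them to a RefSeq table of GRCm38.p6, used for names. Probes detected (p under 0.01) on at least 2 of 16 arrays were kept, with the brightest probe for each gene, giving 7746 genes. A limma model of 8 group means gave two-sided moderated tests, adjusted by Benjamini-Hochberg over all genes of a contrast, with a threshold of 0.05 (degrees of freedom were 8 residual and 4.6 prior). A gene was below background in a group where no array detected any of its probes.

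The rule for named genes took 14 rises and 14 falls (the largest past the test with no overlap of arrays), up to 5 members of each list by smallest p, members called against the rest, 6 genes each way for both differences of time changes, and a set of Hdac4, Hdac5, Hdac7, G6pc, Pck1, Ppargc1a, Fbp1, Pcx, Igfbp1 and Alb. Others were chosen after their values were seen. The members, lists and tests were chosen with earlier results of these data known. On simulated log2 values of 7746 genes for this comparison, 48% of 50 genes changed by 0.5, 92% by 1 and 100% by 2 or 3 were recovered, with 10 false among 180 calls. Normalization was not simulated. Alternatives were the background correction, scaling, the authors' values, filters, all probes, fewer arrays, the variance prior, the column letter as a block and each array left out. Having 2 arrays a group limits the precision.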

Additional observations from a re-analysis of the deposited data

Results flagged for a closer look

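The results here were singled out because the difference between 2 time changes, 4 h minus 2 h, was itself tested and passed. Each is a log2 difference with its adjusted p from limma, the 6 largest each way. No explanation was tested.

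Between viruses under DMSO, the time change of the control virus minus that of the knockdown virus was most positive for Fam25c at 3.52 (adjusted p = 1.6e-08), Cxcl13, a chemokine for B cells, at 3.42 (5.7e-08), Lmcd1 at 2.80 (2.1e-07), Serpinf2, which encodes the plasma inhibitor of plasmin, at 2.80 (4.1e-07), Cyp1a2 at 2.53 (6.8e-07) and Mrgprb2 at 2.29 (9.2e-06). It was most negative for Cxcl5 at -9.68 (3.6e-11), Il1b at -7.09 (3.6e-11), Cxcl2 at -6.81 (4.4e-11), Vnn3 at -6.47 (4.4e-11), Saa3 at -6.16 (7.7e-10) and Ccl7 at -5.23 (1.4e-10). In these last 6 genes the control virus fell and the knockdown virus rose. Cxcl5, Il1b and Cxcl2 were below background in control cells at 4 h, and Il1b in knockdown cells at 2 h, so their values depend on the offset. For Cyp1a2 both knockdown groups were below background. The other probe of Serpinf2 differed by 0.41 between the times with the control virus.

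Between treatments in control cells, the DMSO time change minus the forskolin time change was most positive for Junb at 4.74 (4.5e-09), Lmcd1 at 3.66 (2.5e-08), Klf4 at 3.45 (4.2e-07), C2cd4a at 3.45 (1.2e-08), Hey1 at 3.26 (2.4e-08) and Hilpda, a lipid droplet gene, at 3.26 (1.1e-08). Klf4 was detected at both DMSO times and differed between them by -0.07 ± 0.16 SE, without passing the test. C2cd4a and Hey1 were below background at both DMSO times, and C2cd4a also with forskolin at 4 h, so their values depend on the offset. It was most negative for Cxcl5 at -7.48 (1.8e-09), Vnn3 at -4.50 (4.5e-09), Slc7a2 at -4.35 (6.4e-09), Cxcl1 at -4.30 (4.8e-09), Cxcl2 at -4.14 (1.2e-08) and Crp at -3.33 (5.3e-08). Cxcl5 and Cxcl2 were below background with DMSO at 4 h and at both forskolin times. Crp, Cxcl1 and Slc7a2 fell with DMSO and rose with forskolin.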

How the results depend on the processing

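With median scaling, 235 genes were higher at 4 h in control cells, against 468. With only the arrays compared, 538 genes were called (250 higher, 288 lower), and 355 with the knockdown virus, against 907 and 669; the fit then rests on fewer samples. Leaving out each of 16 arrays gave 502 to 918 genes called, 228 to 465 higher and 274 to 453 lower in control cells, and 371 to 677 with the knockdown virus. A group left with 1 array is assumed to vary like the others. The other counts of calls stayed within 1.5 times. What the column letters stand for is not stated. A minus B correlated at 0.275 between the 2 groups. Over all 28 pairs of groups it ran from 0.0491 to 0.307 and was over 0.1 in 25. Arrays of 1 letter thus shared a difference across groups, which the main fit leaves out. The fit with the letter as a replicate block called 1164 genes, including all 907.

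Of 112 genes named, 90 were called. In these, 75 kept the call under each alternative that tested them and with each array left out, and 15 lost it under at least 1. The fit of all probes served for counts only, and a gene that a filter removed was not tested under that filter. Of those not called, 2 passed under at least 1. No named gene changed direction where the main fit or the alternative called it. Changes of sign in genes called by neither were not counted. Dim genes are limited by background, since 322 genes had no probe detected at 4 h only and 83 at 2 h only. Of these, 69 were called lower and 25 higher. The lowest detected log2 signal was higher at 4 h (6.65 and 6.62) than at 2 h (6.44 and 6.45). The 2 counts therefore do not compare genes lost with genes gained.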
